A study of Mus musculus with 6 samples.

Results

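The nuclear retinoid receptors and the retinoid binding proteins were examined in dissected ear tissue of mouse embryos that had or lacked Tbx1 in mesoderm. The set was 6 receptor genes (Rara, Rarb, Rarg, Rxra, Rxrb and Rxrg) and 3 binding protein genes (Crabp1, Crabp2 and Rbp4). Members were found by gene symbol in the platform's annotation, which gave 12 of 45037 probe sets and 9 of 18193 genes. Tissue was taken at embryonic day 11.5 and comprised the otic vesicle, from whose epithelium the inner ear forms, together with nearby periotic mesenchyme. Mest-KO pools were conditional for Tbx1, a T-box transcription factor gene, and knocked out with T-Cre, and control pools were T-Cre conditional heterozygotes, so both groups carried the Cre and a changed Tbx1 allele. T-Cre takes its name from T (Brachyury), a gene of early mesoderm, and the otic epithelium, which is not mesoderm, was part of the dissected tissue. Each of the 3 arrays per group held RNA of a pool of 3 embryos, left and right ears together, on 1-colour Affymetrix mouse arrays.

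Retinoic acid is a small signal made from vitamin A. It reaches the nucleus with the help of small cytoplasmic binding proteins, the CRABPs, and binds a retinoic acid receptor (RAR) that sits on DNA together with a retinoid X receptor (RXR). With the hormone bound, the pair exchanges corepressors for coactivators and switches on genes that carry a retinoic acid response element. In the developing ear, retinoic acid from neighbouring tissue helps to pattern the otic vesicle along its front to back axis, and both too much and too little of it cause ear malformations.

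Rarb is itself a classical target of the pathway, because its promoter holds a response element. The 250 bases before its start site are shown because they connect the level of Rarb with the signal that the other members carry. The sequence comes from RefSeq (GRCm38.p6, chr14:16575477-16575726, minus strand), and the capitals mark a direct repeat with a spacer of 5 bases (DR5), from 53 to 37 bases before the start. A stretch of the Cyp26a1 promoter (chr19:37697746-37697807, plus strand, the same source) is set beside it, with its DR5 on the other strand. Cyp26a1 encodes an enzyme that breaks down retinoic acid and is another classical target.
Rarb: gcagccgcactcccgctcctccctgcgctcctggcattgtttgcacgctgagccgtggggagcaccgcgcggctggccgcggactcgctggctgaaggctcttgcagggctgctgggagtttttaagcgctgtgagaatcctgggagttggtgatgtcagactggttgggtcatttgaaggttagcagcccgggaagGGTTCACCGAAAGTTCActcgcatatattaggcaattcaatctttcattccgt
Cyp26a1: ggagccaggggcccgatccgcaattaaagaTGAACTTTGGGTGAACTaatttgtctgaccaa

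The motif was a direct repeat of the hexamer AGGTCA, of its variant AGTTCA, of a further variant GGGTCA or of the variant GGTTCA, in any pairing, searched on both strands of windows of 300 bases around start sites. A DR5 stood in 32 of 32851 windows (0.0974%). Repeats with spacers of 1 and 2 bases stood in 0.222% and 0.268%. The 9 members had 16 windows for 8 genes. Rarb was the one member with a DR5, and 0 members had a repeat with the shorter spacers, which says only that these letters are not in these windows. A match is a description of the sequence and does not show that a receptor was bound in this tissue.

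None of the 9 members differed between Mest-KO and control at the threshold used, a limma p below 0.05 after Benjamini-Hochberg adjustment over 14170 genes. All 9 were among the genes tested. Over all genes 21 passed (0.148%), and at an unadjusted limma p under 0.05 the members had 1 of 9 where all genes had 8.97%. Of the 21 genes, 12 were higher (0.0847%) and 9 lower (0.0635%) in Mest-KO. Of the members 4 were higher and 5 lower, where 53.8% of all genes were higher, with a median log2 difference of -0.02 against 0.01 over all genes. The median size of the difference, without its sign, was 0.07 for the members and 0.10 for all genes. Values below are deposited intensities on a linear scale, and log2 differences are Mest-KO minus control on the log2(value + 16) scale with the standard error of the fit. The intensity of one probe set cannot be compared with that of another.

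**Figure D1:**
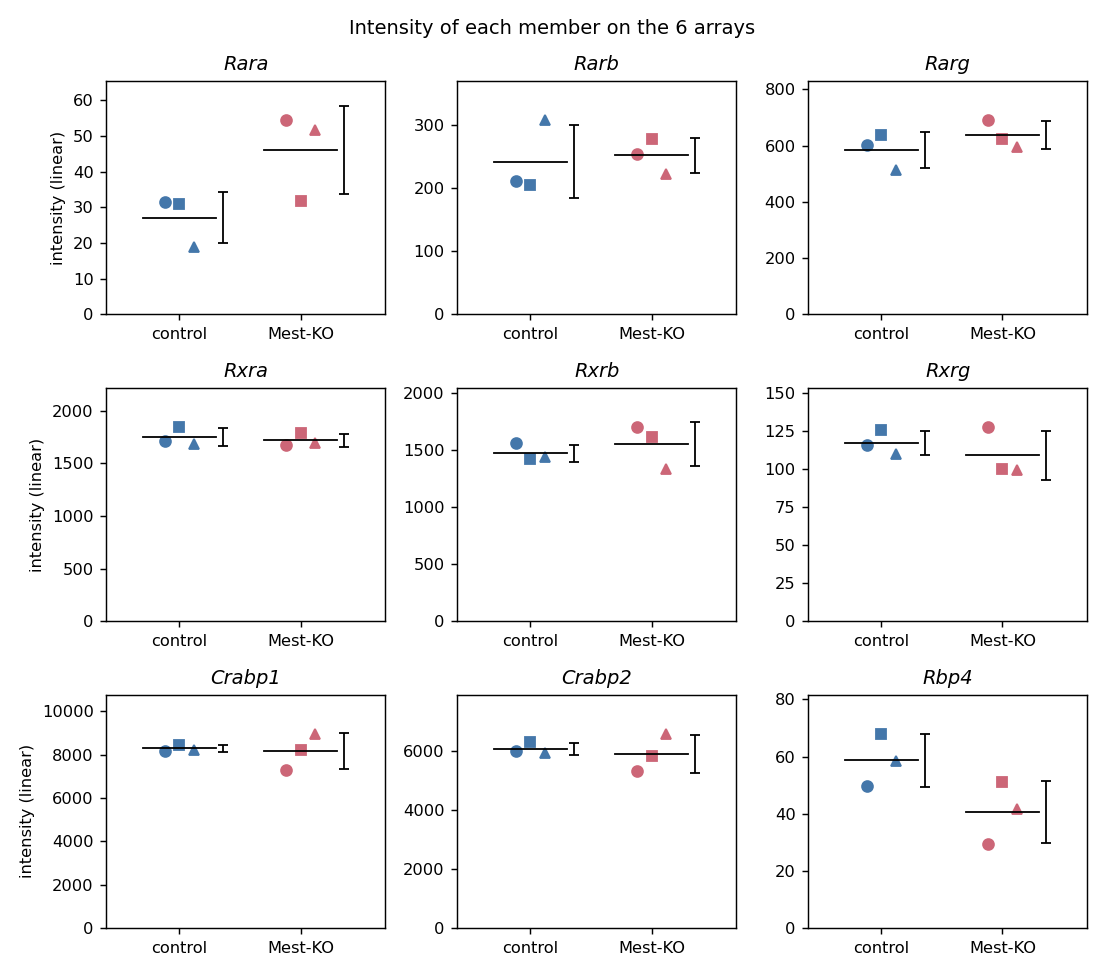
Intensity (linear, vertical axes starting at 0) of the probe set that represents each of the 9 genes, in 3 control and 3 Mest-KO arrays; circles, squares and triangles are replicates 1, 2 and 3, lines are means and bars 1 SD. Rara is the one gene whose groups do not touch, 18.8 to 31.6 against 31.8 to 54.5; Crabp1, Crabp2 and Rxra stay nearly level between groups.

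Among the retinoic acid receptors, Rara was the member with the largest difference. Rara encodes RAR alpha, a receptor made in most embryonic tissues. It read 31.6, 30.8 and 18.8 in control 1, 2 and 3, against 54.5, 31.8 and 51.6 in Mest-KO 1, 2 and 3. Every Mest-KO array was above every control array, but Mest-KO 2 (31.8) exceeded control 1 (31.6) by almost nothing. The means were 27.1 ± 7.16 and 45.9 ± 12.4 (SD, n = 3 arrays each), with a log2 difference of 0.52 ± 0.21 and a 95% interval from 0.06 to 0.98. The limma p was 0.0306 before adjustment and 0.484 after it, so the difference did not pass. The exact permutation p was 0.1, the smallest that 3 arrays against 3 can give. Groups did not overlap, with Mest-KO higher, for 1 of the 9 members and for 9.32% of all genes. With Mest-KO lower this held for 0 members and for 5.22% of all genes. The Rara probe set was dim, though above the highest control probe set for a transcript that was not spiked in (11.2) on all 6 arrays.

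The Rara values ran partly alongside tissue that borders the ear. The summed intensity of 9 marker genes of the hindbrain neural tube was 535.5 to 2256 in control and 205.9 to 540.9 in Mest-KO, and 0 of the 9 lay at background on every array. As a mean log2 deviation, this list stood at 1.25, -0.28 and 1.26 in control 1, 2 and 3 and at -0.91, -0.25 and -1.07 in Mest-KO 1, 2 and 3. Rara deviated by -0.10, -0.12 and -0.55 in the controls but by 0.47, -0.10 and 0.41 in Mest-KO. It was therefore highest on the arrays with the least hindbrain signal, Mest-KO 1 and 3, and lowest on control 3, where that signal was high, but control 1 had as much of it and a middling Rara value. With the hindbrain list as a covariate the Rara difference went from 0.52 ± 0.21 to 0.16 ± 0.32 (limma, adjusted p = 0.970). The list averaged 0.74 over the controls and -0.74 over Mest-KO, so this covariate overlaps with genotype. Fits with it, here and below, cannot separate genotype from hindbrain signal, whether a difference shrinks or grows. In pooled tissue, fewer cells of a type and less RNA per cell cannot be told apart. The part of the hindbrain signal in the result was not tested further.

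Rarb, which encodes RAR beta and carries the DR5 shown above, did not separate the groups. It read 211.7, 204.8 and 308.2 in control 1, 2 and 3, against 254.8, 278.2 and 222.7 in Mest-KO 1, 2 and 3. Control 3 was the highest array of all, and the other 2 controls were the lowest. Mest-KO exceeded control by 0.07 ± 0.17 on the log2 scale (95% interval, -0.29 to 0.44; limma, adjusted p = 0.934; exact permutation p = 0.8). In this fit the arrays would thus leave room for a change of Rarb of 0.815-fold to 1.36-fold. With the hindbrain covariate the log2 difference of Rarb was 0.40 ± 0.25. The other DR5 promoter shown, that of Cyp26a1, belongs to a gene that read 1614, 1680.1 and 1630.0 in the controls, against 1902.5, 1694 and 2458 in Mest-KO. All Mest-KO arrays were higher, though Mest-KO 2 by little, and the log2 difference of 0.28 ± 0.12 did not pass (limma, adjusted p = 0.532). It was 0.13 ± 0.09 without Mest-KO 3 and 0.08 ± 0.19 with the hindbrain covariate. Of the 31 genes with a DR5 in a window, 11 had a probe set and 9 were tested. Of these 9, 0 passed the threshold (0.148% of all genes) and 2 had an unadjusted limma p under 0.05 (8.97% of all genes). The 2 were Cyp26a1, higher, and Hbb-y, lower. Among the 9, 4 were higher and 5 lower, with a median log2 difference of -0.13 against 0.01 over all genes.

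Rarg, which encodes RAR gamma, a receptor prominent in cartilage-forming mesenchyme, was measured by a pair of probe sets that pointed in opposite directions. The brighter one read 601.9, 638.5 and 512.8 in control 1, 2 and 3, against 691.5, 624.4 and 596.2 in Mest-KO 1, 2 and 3. Its log2 difference was 0.13 ± 0.12 (95% interval from -0.13 to 0.38; limma, adjusted p = 0.809), and the groups overlapped. The dimmer one read 66.7, 89.8 and 103.4 in the controls, against 49.1, 54.1 and 93.3 in Mest-KO. In the fit over 31526 probe sets, of which 0.0666% passed the threshold, it differed by -0.36 ± 0.22 (95% interval from -0.85 to 0.14; limma, adjusted p = 0.652). Both intervals cover 0, so the arrays give no direction for Rarg.

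The retinoid X receptors, the partners that RARs need to bind DNA, varied little. For Rxra, which encodes RXR alpha, the brightest probe set read 1715, 1849.8 and 1686 in control 1, 2 and 3, against 1675, 1789.5 and 1694 in Mest-KO 1, 2 and 3. In each group replicate 2 was the highest array, and the groups overlapped almost fully. The log2 difference was -0.02 ± 0.08 and its 95% interval ran from 0.871-fold to 1.11-fold (limma, adjusted p = 0.954). A second Rxra probe set was dim, at 16.3, 29.0 and 29.9 in the controls, against 18.7, 22.8 and 17.5 in Mest-KO (-0.19 ± 0.19; limma over probe sets, adjusted p = 0.811). The third read between 0.471 and 4.72 on the 6 arrays, at or below background throughout, and was not tested.

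Rxrb, encoding the widely made RXR beta, read 1560.2, 1426 and 1436 in control 1, 2 and 3, against 1706, 1620.4 and 1334 in Mest-KO 1, 2 and 3. Mest-KO 3 was the lowest array and the other Mest-KO arrays the highest. The difference of 0.07 ± 0.10 lay between 0.896-fold and 1.23-fold (limma, adjusted p = 0.891). Rxrg, encoding RXR gamma, the most tissue-restricted of the RXRs, read 115.8, 125.2 and 109.5 in the controls, against 127.7, 99.8 and 99.4 in Mest-KO. Its difference was -0.09 ± 0.15, with a 95% interval from 0.745-fold to 1.18-fold (limma, adjusted p = 0.896). Mest-KO 1 was the highest array for Rxrg, and the other 2 Mest-KO arrays were below all controls.

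**Figure D2:**
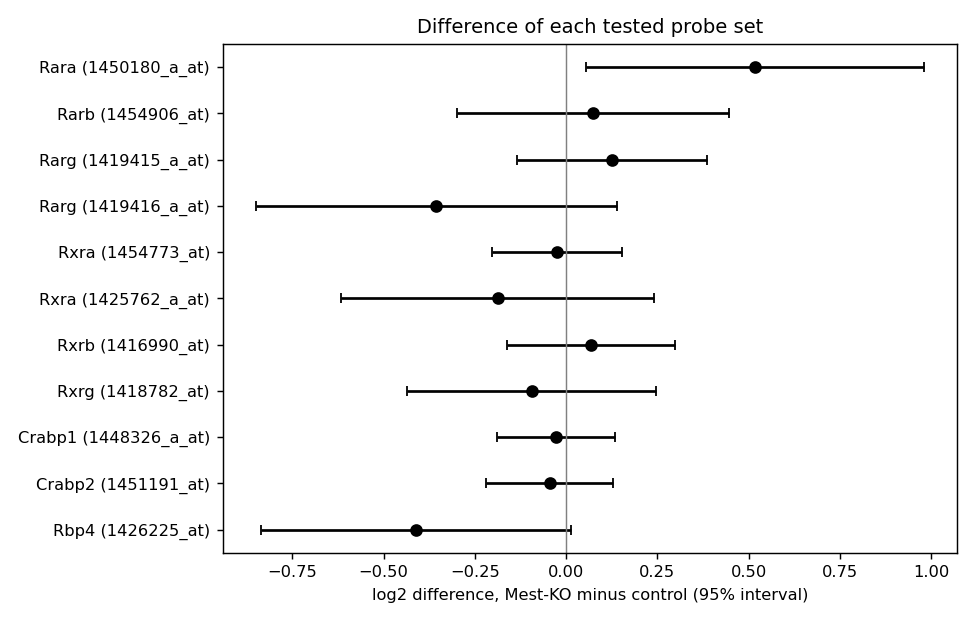
Log2 difference (Mest-KO minus control, horizontal axis) with its 95% interval for the 11 member probe sets tested, from the limma fit over 31526 probe sets. The interval leaves out 0 only for Rara, before any adjustment; the narrowest intervals belong to the bright Crabp1, Crabp2 and Rxra probe sets and the widest to dim ones.

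The cellular binding proteins were both bright and both close to level between the groups. Crabp1 encodes CRABP1, which holds retinoic acid in the cytoplasm and is abundant in neural crest cells, mesenchyme and hindbrain. It read 8177, 8449 and 8216 in control 1, 2 and 3, against 7295, 8193 and 8971 in Mest-KO 1, 2 and 3. The means were 8281 ± 147.3 and 8153 ± 838.8 (SD, n = 3 arrays each). The log2 difference of -0.03 ± 0.07 had a 95% interval from -0.19 to 0.13 (limma, adjusted p = 0.944; exact permutation p = 0.8).

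Crabp2 encodes CRABP2, which delivers retinoic acid to the RARs. It read 5987, 6303 and 5927 in control 1, 2 and 3, against 5316, 5810.0 and 6588 in Mest-KO 1, 2 and 3. The means were 6072 ± 202.3 and 5905 ± 640.9, and the log2 difference was -0.05 ± 0.08, in a 95% interval of 0.860-fold to 1.09-fold (limma, adjusted p = 0.903; exact permutation p = 0.7). For both genes the Mest-KO arrays spread wider than the controls, with Mest-KO 1 the lowest and Mest-KO 3 the highest of all 6.

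Crabp1 and Crabp2 moved together from array to array. Their log2 deviations from their own means differed by at most 0.04 on any array. Crabp1 stood at -0.17, -0.002 and 0.13 in Mest-KO 1, 2 and 3, and Crabp2 at -0.17, -0.04 and 0.14. The control probe sets at the 5′ ends of 2 housekeeping transcripts did the same. That of Actb stood at -0.15, -0.04 and 0.16 in Mest-KO 1, 2 and 3, and that of Gapdh at -0.18, -0.04 and 0.12. The largest gap between either Crabp gene and either of these control probe sets was 0.04 on any array. For 224 other genes, mean intensity lay between those of Crabp2 and Crabp1. Their median deviation was -0.06, -0.01 and -0.001 in Mest-KO 1, 2 and 3. A median over many genes hides the spread of single genes, and how many ran like Crabp1 was not counted. The ratio of the 5′ to the 3′ Actb probe set, a sign of how complete the labelled RNA is, was 0.502, 0.533 and 0.576 in Mest-KO 1, 2 and 3 and between 0.550 and 0.558 in control. The same ratio for Gapdh was 0.637, 0.707 and 0.731 in Mest-KO 1, 2 and 3 and 0.744, 0.742 and 0.679 in control 1, 2 and 3, so that it was lowest in Mest-KO 1 as well, but Mest-KO 3 was below control 1 and 2. The part of these ratios in the Crabp values was not tested beyond 1 fit with the Actb ratio as a covariate. There the differences were 0.04 ± 0.06 for Crabp1 and 0.03 ± 0.06 for Crabp2, against -0.03 and -0.05 without it.

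**Figure D3:**
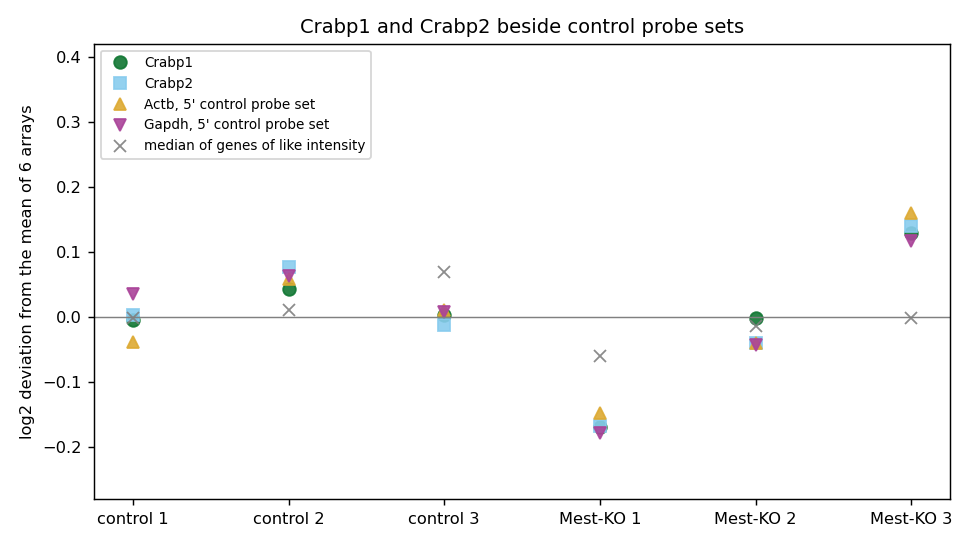
Log2 deviation from the mean of the 6 arrays (vertical axis) on each array for Crabp1, Crabp2, the 5′ control probe sets of Actb and Gapdh, and the median of 224 genes of like intensity. The Crabp genes and the control probe sets lie together on every array, lowest in Mest-KO 1 and highest in Mest-KO 3. The median of like genes, which hides the spread of single genes, lies between -0.06 and 0.07.

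Rbp4 encodes the serum carrier that brings retinol to tissues, and is made mainly in liver and yolk sac. It was dim and read 49.6, 68.1 and 58.5 in control 1, 2 and 3, against 29.2, 50.9 and 41.7 in Mest-KO 1, 2 and 3. Mest-KO 1 and 3 were below all controls, while Mest-KO 2 exceeded control 1. The means were 58.7 ± 9.25 and 40.6 ± 10.9 (SD, n = 3 arrays each). This made a log2 difference of -0.41 ± 0.19 (95% interval, -0.83 to 0.01) that did not pass (limma, adjusted p = 0.564; exact permutation p = 0.2). Without Mest-KO 1 it was -0.26 ± 0.19. Ttr, encoding transthyretin, the protein that RBP4 travels with in blood, varied far more. It read 6454, 2886 and 5282 in control 1, 2 and 3, against 4388, 3542 and 198.2 in Mest-KO 1, 2 and 3. The lowest array was Mest-KO 3. Afp, a marker of visceral endoderm and fetal liver, read 23.1, 72.5 and 211.9 in the controls, against 64.4, 304.6 and 14.9 in Mest-KO. Its 3 highest arrays, control 2, control 3 and Mest-KO 2, were also the 3 highest for Rbp4. Afp peaked in Mest-KO 2 and Rbp4 in control 2, and the lowest array was Mest-KO 3 for Afp and Mest-KO 1 for Rbp4. Apoa1 is an apolipoprotein gene of the same tissues as Afp. It read 42.6, 33.9 and 45.5 in control 1, 2 and 3, against 27.4, 90.6 and 27.7 in Mest-KO 1, 2 and 3. Mest-KO 1 and 3 were lowest, as for Rbp4. Control 2, the highest array for Rbp4, was the lowest control for Apoa1 and Ttr. Ttr, Afp and Apoa1 were the 3 genes tested of 7 in the visceral endoderm and liver list. Its summed intensity was 2992 to 6520 in control and 240.8 to 4479 in Mest-KO, most of it Ttr on every array. The sum therefore follows Ttr rather than the list, and which tissue made the Ttr was not tested. With the hindbrain covariate the Ttr difference went from -1.63 ± 0.88 to 0.13 ± 1.30. Alb, the liver's albumin gene, read 1.56 to 20.1 and was not tested. The part of visceral endoderm or liver cells in the Rbp4 values was not tested.

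The genes whose log2 profile over the 6 arrays was most like that of a member were sought for the 3 members with the largest differences. For Rara these were Arrdc1, Kctd4 and Trim68, at a root mean square distance of 0.07 to 0.09 where Rara itself varied by 0.35. For Rbp4 they were Clstn3, Baalc and Rasgrp2, at 0.09 to 0.11 where Rbp4 varied by 0.28. For Rarg they were Ctu2, Nat8f1 and Ddx11, at 0.02 to 0.03 against 0.13. With 6 arrays and 14170 genes such neighbours always exist, and the values are a description. The 9 neighbours had limma adjusted p of 0.200 or more.

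The genes that surround the receptors were read from 3 lists of 81 different genes, of which 56 were tested. At an unadjusted limma p under 0.05 there were 14 of the 56, where all genes had 8.97%. One of the 56 passed the adjusted threshold, which 0.148% of all genes passed. It was Hoxb1, a homeobox gene of the hindbrain and a direct retinoic acid target, which read 40.2, 29.1 and 66.0 in control 1, 2 and 3 and lay at or below background in all 3 Mest-KO arrays. Its log2 difference was -1.46 ± 0.23 (limma, adjusted p = 0.0478), and the call was lost in most alternative settings. With the Mest-KO values set to background, control was higher by at least 2.18-fold on the scale of the fit, which understates the change of dim genes. The hindbrain neural tube list, given above, was also low in Mest-KO 1 and 3, but in Mest-KO 2 (-0.25) it was level with control 2 (-0.28). Hoxb1 read 9.08 in Mest-KO 2 and 29.1 in control 2. With the hindbrain covariate the Hoxb1 log2 difference was -0.87 ± 0.32 and did not pass (limma, adjusted p = 0.803). The part of the hindbrain signal in the Hoxb1 values was not tested further. The other 55 genes did not pass.

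In the list of retinoid transport and metabolism, 17 of 27 genes were tested, 11 higher and 6 lower, with 0 past the threshold, 7 at an unadjusted limma p under 0.05 (8.97% of all genes) and a median log2 difference of 0.17 against 0.01 over all genes. Groups did not overlap for 9 of the 17 genes, 6 higher and 3 lower, where 14.5% of all genes did so. The smallest p belonged to Aldh1a3 (0.43 ± 0.12), Cyp26b1 (-0.65 ± 0.20), Aldh1a2 (0.45 ± 0.14) and Lpl (-0.29 ± 0.11). With the hindbrain covariate Cyp26b1 was at -0.22 ± 0.29, and with the mean of all probe sets Aldh1a3 was at 0.18 ± 0.11 and Lpl at -0.16 ± 0.11. Aldh1a2 and Aldh1a3 encode enzymes that make retinoic acid, Cyp26b1 one that degrades it, and Lpl a lipase that also frees retinol from its esters. Their limma adjusted p ran from 0.263 to 0.426. Stra6, encoding the membrane receptor for RBP4, read 199.5, 277.8 and 247.0 in the controls, against 316.5, 302.8 and 325.7 in Mest-KO (0.37 ± 0.14; limma, adjusted p = 0.441). Its groups did not overlap, with Mest-KO higher, while its ligand gene Rbp4 was lower on average. Neither difference passed, and with the hindbrain covariate that of Stra6 was 0.11 ± 0.21.

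Among partners and cofactors of the receptors, 23 of 29 genes were tested, 14 higher and 9 lower, with a median log2 difference of 0.02 and 0 past the threshold. The median size of the difference was 0.09 against 0.10 over all genes, and 2 of the 23 had an unadjusted limma p under 0.05 (8.97% of all genes). Fabp5, encoding the binding protein that carries retinoic acid to another nuclear receptor, PPAR delta, had the smallest p. It read 8297, 8244 and 9067 in the controls, against 7533, 7238 and 6937 in Mest-KO. All Mest-KO arrays were lower, and the log2 difference was -0.24 ± 0.06 (limma, adjusted p = 0.207), or -0.11 ± 0.05 with the mean of all probe sets. Mest-KO 3, the highest array for both Crabp genes, was the lowest for Fabp5. The coactivator genes Ncoa2 (-0.33 ± 0.13), Ncoa1 (-0.17 ± 0.09) and Med1 (-0.13 ± 0.08) followed, with limma adjusted p from 0.478 to 0.666.

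Of 30 retinoic acid response genes, 20 were tested, 11 higher and 9 lower, with a median log2 difference of 0.08 against 0.01 over all genes. At an unadjusted limma p under 0.05 there were 7 of the 20 (8.97% of all genes), and groups did not overlap for 6, 4 higher and 2 lower (14.5% of all genes). Hoxb1 was the one that passed the adjusted threshold. Hoxb5, a homeobox gene expressed farther back, chosen after its value was seen, read 78.4, 54.7 and 123.5 in the controls, against 150.4, 256.8 and 166.8 in Mest-KO (1.05 ± 0.25; limma, adjusted p = 0.195). Its groups did not overlap, in the direction opposite to Hoxb1, and with the hindbrain covariate its difference was 1.83 ± 0.30. Dhrs3, encoding an enzyme that turns retinal back into retinol and is induced by retinoic acid, differed by -0.23 ± 0.12 (limma, adjusted p = 0.605), and by -0.12 ± 0.11 without control 3 or -0.07 ± 0.19 with the hindbrain covariate. Cyp26a1, Stra6 and Dhrs3 stand in the metabolism list as well, and these, with Ttr, Afp and Apoa1, were named for their roles after their values were seen.

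**Figure D4:**
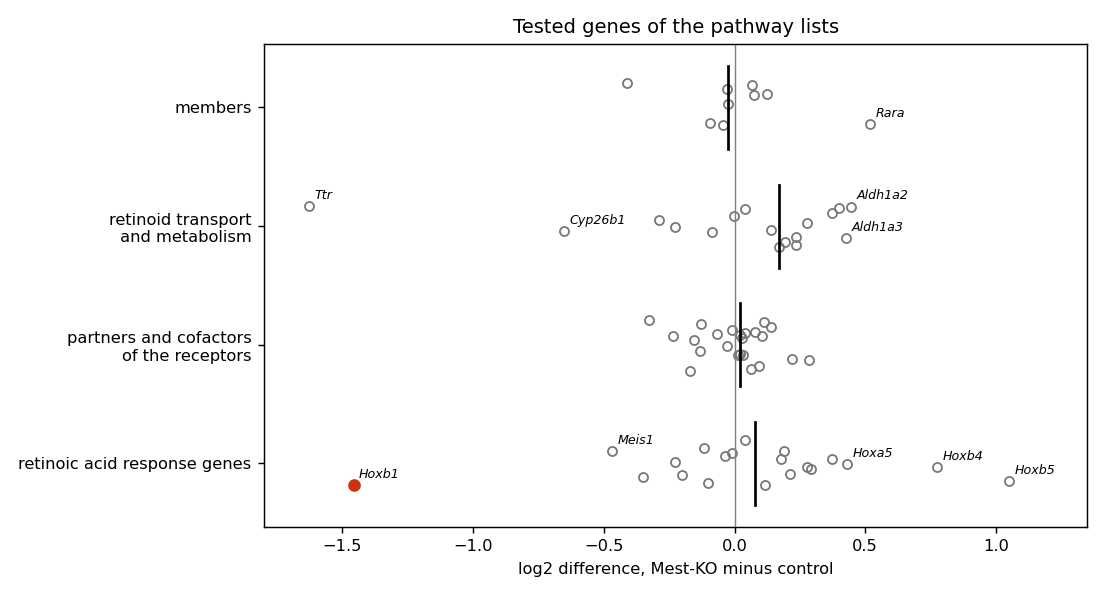
Log2 difference (Mest-KO minus control, horizontal axis) of each tested gene among the members and in the 3 pathway lists; black bars are medians, and vertical scatter within a row has no meaning. Hoxb1 (filled) is the one gene past the threshold, its size set by background in Mest-KO; 7 of the 9 members lie within 0.13 of 0, and Rara and Rbp4 stand apart.

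Marker genes of the labelled tissue were present. The otic vesicle gene Oc90 read 2915 to 3782 over the 6 arrays and the mesenchymal gene Prrx1 read 5868 to 6233. Of 7 periotic mesenchyme markers 5 were lower in Mest-KO, among them Pou3f4 (-0.76 ± 0.21), Tbx15 (-0.36 ± 0.10) and Prrx2 (-0.30 ± 0.11), with 0 past the threshold, and the mean deviation of the list did not overlap between groups (exact permutation p = 0.1). Of 5 otic epithelium markers 3 were lower, Otx1 the most (-0.79 ± 0.20), with 0 past the threshold. All 3 neural crest and glia markers, Sox10, Foxd3 and Ngfr, were higher by 0.41 without overlap, with 0 past the threshold. All 7 cranial ganglion neuron markers were higher and all 6 pharyngeal endoderm markers lower in Mest-KO, 1 past the threshold in each list. The 9 hindbrain neural tube markers were all lower, with 1, Skor1, past the threshold (-3.46 ± 0.49; limma, adjusted p = 0.0256). All 5 blood endothelium and all 3 macrophage markers were higher, with 0 past the threshold. The part of these shifts in the members' values was not tested. Tbx1 itself averaged 512.8 ± 61.1 over the controls and 502.8 ± 85.4 over the Mest-KO arrays (limma log2 difference -0.03 ± 0.14, adjusted p = 0.967). This leaves the genotypes unchecked, because otic epithelium also makes Tbx1 and the position of the probe set relative to the deletion is not known here.

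The result for the members was the same under every other setting tried, with 0 of the members' genes and 0 of their tested probe sets past the threshold in each. Rara stayed higher in Mest-KO in all 19 settings in which it was tested, between 0.16 and 0.74 on the log2 scale, and Rbp4 stayed lower in all 19, between -0.59 and -0.23. The direction of Rarb, Rarg, Rxra, Rxrb, Crabp1 and Crabp2 turned in 1 to 3 of 20 settings each, at differences close to 0, and that of Rxrg in 0.

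**Figure D5:**
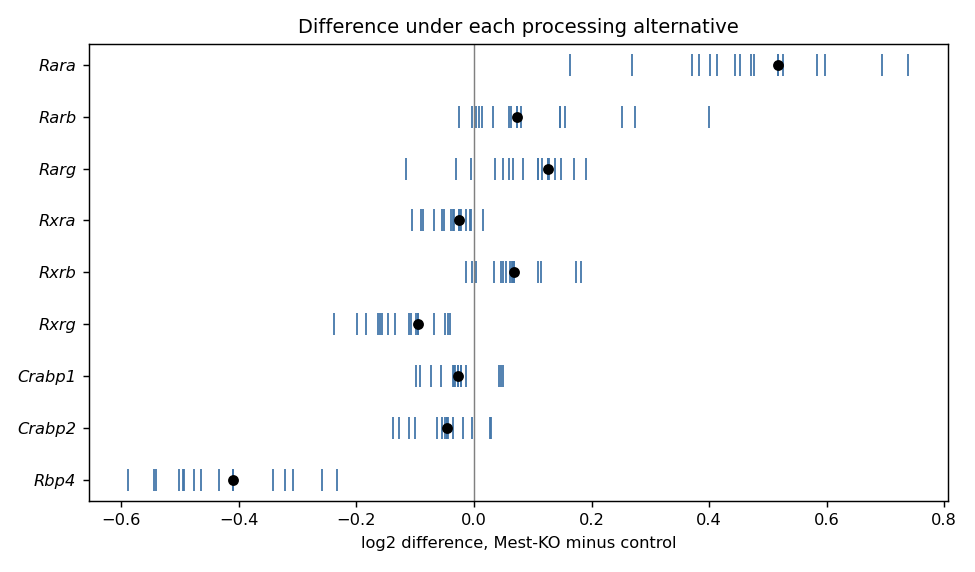
Log2 difference (Mest-KO minus control, horizontal axis) of each member in the main fit (black point) and in each alternative setting (blue marks). Rara lies above 0 (0.16 to 0.74) and Rbp4 below 0 (-0.59 to -0.23) in all marks, while Crabp1 and Crabp2 stay between -0.14 and 0.05.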

How the data were processed

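The authors deposited a linear intensity for each of 45101 probe sets. The submitters' processing notes name Affymetrix Expression Console 1.1. How probes were summarized and background handled is not given in the sources used here. On each array the mean was 500.002 once 2% of probe sets were trimmed at either end, so the arrays had been scaled to one level. Such scaling hides a change shared by most genes. Per the labels' protocols, each array took cRNA made from 300 ng of RNA, and arrays of a group were biological replicates. Groups came from the titles.

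The fits excluded 64 control probe sets. Of the others, probe sets listed with 1 symbol were used for genes, and 9160 not listed were unnamed. Each gene took its probe set with the highest mean, kept above the 30th percentile (14170 of 18193 genes). Background was the highest of 27 unspiked bacterial probe sets (11.2). log2(value + 16) was fitted with limma 3.58.1 (R 4.3.3), genotype as the only term, eBayes with trend, two-sided, with Benjamini-Hochberg adjustment at 0.05. The same model was fitted to 31526 probe sets. A difference on the log2(value + 16) scale understates the change of dim genes. The exact permutation test was two-sided. The fit was run on simulated data with noise drawn independently for each probe set and array. That simulation held no effect shared by the genes of an array. The number of arrays limits the precision.

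Members, lists and tests were chosen with earlier results of these data known. Named genes were all members, list genes past the threshold or otherwise the 4 of smallest p in a list, and 3 neighbours of 3 members. Alternatives were other scaling, filters, pseudocounts, variance models, array weights, a replicate block, covariates and leaving out arrays. Those without control 1 and 3 and with the Actb ratio were added after seeing the data.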

Additional observations from a re-analysis of the deposited data

How the results depend on the processing

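With 3 arrays a group, standard errors were near 0.2 for dim probe sets such as Rara and Rbp4. Differences well above that size can go undetected. Hoxb5, at 1.05 ± 0.25, did not pass (limma, adjusted p = 0.195). Of the members' 0 calls, 20 of 20 alternatives kept 0 genes and 19 of 19 kept 0 probe sets. At the 50th percentile filter Rara and Rbp4 were not tested.

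Member differences that turned sign had limma adjusted p of 0.793 or more. Crabp1 was 0.046 with quantile normalization, and Crabp1 and Crabp2 were 0.042 and 0.028 with the Actb ratio. Rarg was -0.12 with the mean of all probe sets, -0.030 with the hindbrain covariate and -0.0050 without control 1 and 3. Rxrb was -0.014 with the Actb ratio. Leaving out 1 array at a time gave Rarb -0.026 (without control 2; also below 0 without control 1) to 0.25, Rxra -0.054 to 0.015 (without control 2), Rxrb -0.0029 (without Mest-KO 1) to 0.17, Crabp1 -0.099 to 0.050 and Crabp2 -0.13 to 0.027, both highest without Mest-KO 1. Of the other genes named, Ncoa1 was 0.062 with the mean of all probe sets. With the hindbrain covariate Ncoa2 was 0.027, Med1 0.035 and Ttr 0.13, and without control 1 and 3 Med1 was 0.0053. The cause was not tested.

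The 21 genes called became 78 with arrays centred on their medians (22 higher and 56 lower, against 12 and 9), where the median of all genes was -0.05 against 0.01, 2 with no filter, 1 without trend, 6 with the mean of all probe sets, 3 with the hindbrain covariate, 5 without control 1 and 3, and from 2 (without control 1) to 84 (without control 2) when 1 array was left out. The 1 pathway gene called became 0 with no filter, the 50th percentile filter, pseudocount 64, no trend, the mean of all probe sets, the Y-linked, hindbrain and Actb covariates and without control 1 and 3, and 0 to 2 (without control 2) when 1 array was left out. With the replicate block 9 genes and 0 pathway genes passed. Same-numbered arrays did not deviate together (r = -0.03, -0.11 and -0.15 across genes), so the numbers gave no sign of a pairing. The r was 0.16 for control 1 with Mest-KO 2, 0.24 for control 2 with Mest-KO 3 and 0.19 for control 3 with Mest-KO 1. Deviations were taken from group means of 3 arrays, so these r depend on each other. A batch shared by differently numbered arrays was not tested.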
